A study of Mus musculus with 12 samples.

Results

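The genes described are 10 genes of the gut epithelium, which fall into intestinal lectins (Lgals2, Lgals3, Lgals4 and Zg16), brush border peptidases (Anpep, Dpp4, Enpep and Mep1a) and proteins of the microvillus and its scaffold (Vil1 and Pdzk1). They were read from every array probe that carried such a gene name, which gave 13 of the 55681 probes and 10 of the 34836 gene names. The set had been picked with its values in view, because, after dexamethasone (Dex), Lgals2 and Zg16 read higher and Anpep read lower in the Sox7-/- line than in the Sox7+/- line. Those 3 genes, and every difference between the genotypes, are therefore given as a description with no p-value, and calls among them are not tests. The other genes were also chosen with earlier results known, and their adjusted p-values for the Dex response do not allow for that choice.

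The brush border is the carpet of microvilli on the apical face of absorptive cells in the gut, the kidney tubule and the visceral endoderm of the early embryo. Villin bundles the actin core of each microvillus, PDZ scaffold proteins hold transporters at its membrane, and membrane-bound peptidases on its surface trim peptides before uptake. Galectins are small lectins that bind galactose-containing glycans on glycoproteins and glycolipids, and several take part in apical sorting in epithelia.

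All cells were mouse embryonic stem (ES) cells that carried Gata6GR, the transcription factor Gata6 fused with the ligand-binding domain of the human glucocorticoid receptor, under the CAG promoter of a piggyBac vector. The 4 groups had 3 arrays each. They were Sox7+/- cells and Sox7-/- cells, each kept without Dex (ES cells) or with Dex, which activates Gata6GR, and harvested at day 4 (XEN-like cells, after extraembryonic endoderm). The targeting had replaced the coding sequence of Sox7. Sox7-/- cells had been selected from the heterozygous line with a high dose of puromycin and each genotype was a single line, so that genotype and line cannot be told apart. All cells were grown with LIF.

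Signals were well above background for 41.7% to 52.3% of the spots of an array. The probe for Sox7, the targeted gene, read 2.18 to 2.29 in Sox7+/- ES cells and 4.90 to 6.88 in Sox7+/- XEN-like cells as relative signal, the processed signal divided by the 75th percentile of its array, and was not well above background on any of the 6 Sox7-/- arrays (0.0148 to 0.0257). Labels that name the source of the 3 Sox7+/- ES arrays give all of them the same replicate number, whereas their titles number them 1 to 3. No label says whether arrays of a group came from separate cultures, so p-values measure only the spread between these arrays, which may be technical. Of 10 ES cell markers, 7 fell and 1 rose with Dex in Sox7+/- cells and 8 fell in Sox7-/- cells, with median log2 changes of -4.89 and -4.65. Of 12 parietal endoderm markers, 10 rose in Sox7+/- cells and 9 in Sox7-/- cells. Of 12 visceral endoderm markers 10 could be tested, of which 5 rose and 3 fell in Sox7+/- cells and 9 rose in Sox7-/- cells. Among all probes, by the same limits, 11.0% rose and 14.0% fell in Sox7+/- cells, and 14.6% rose and 14.2% fell in Sox7-/- cells. Ihh, a hedgehog ligand, rose by 2.72 on the log2 scale in Sox7+/- cells and by 6.18 in Sox7-/- cells. The 3 that fell in Sox7+/- cells were Amn (log2 -2.08), Cubn (-1.85) and Apob (at least 1.29-fold). Amn and Cubn rose in Sox7-/- cells (1.53 and 1.82). Afp and Apoa1 were not well above background on any array.

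With Dex, Lgals3, Lgals4 and Pdzk1 fell and Dpp4 and Enpep rose in both genotypes. Lgals2 was lower with Dex in Sox7+/- cells and higher in Sox7-/- cells, and Anpep was lower with Dex in Sox7-/- cells only, as far as the fit called it. Of the 10 genes, 9 had a probe that at least 1 group read well above background on each of its 3 arrays, and these were tested, each by its brightest probe. The limma fit covered all 25940 probes that passed this filter, and a call needed both a change over 2-fold and a p under 0.05 after Benjamini-Hochberg adjustment. In Sox7+/- cells 8 of the 9 were called, 3 higher and 5 lower, where 24.9% of all probes were called (11.0% higher and 14.0% lower). In Sox7-/- cells 8 of the 9 were called, 4 higher and 4 lower, beside 28.8% of all probes (14.6% higher and 14.2% lower). The median log2 change of the 9 genes was -1.80 in Sox7+/- cells and 0.66 in Sox7-/- cells, beside 0.155 and 0.074 for all probes. These counts include the 3 genes chosen for their values and rest on the probes that passed the filter. Zg16 passed it through XEN-like cells alone, so nothing is drawn from the counts.

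**Figure D1:**
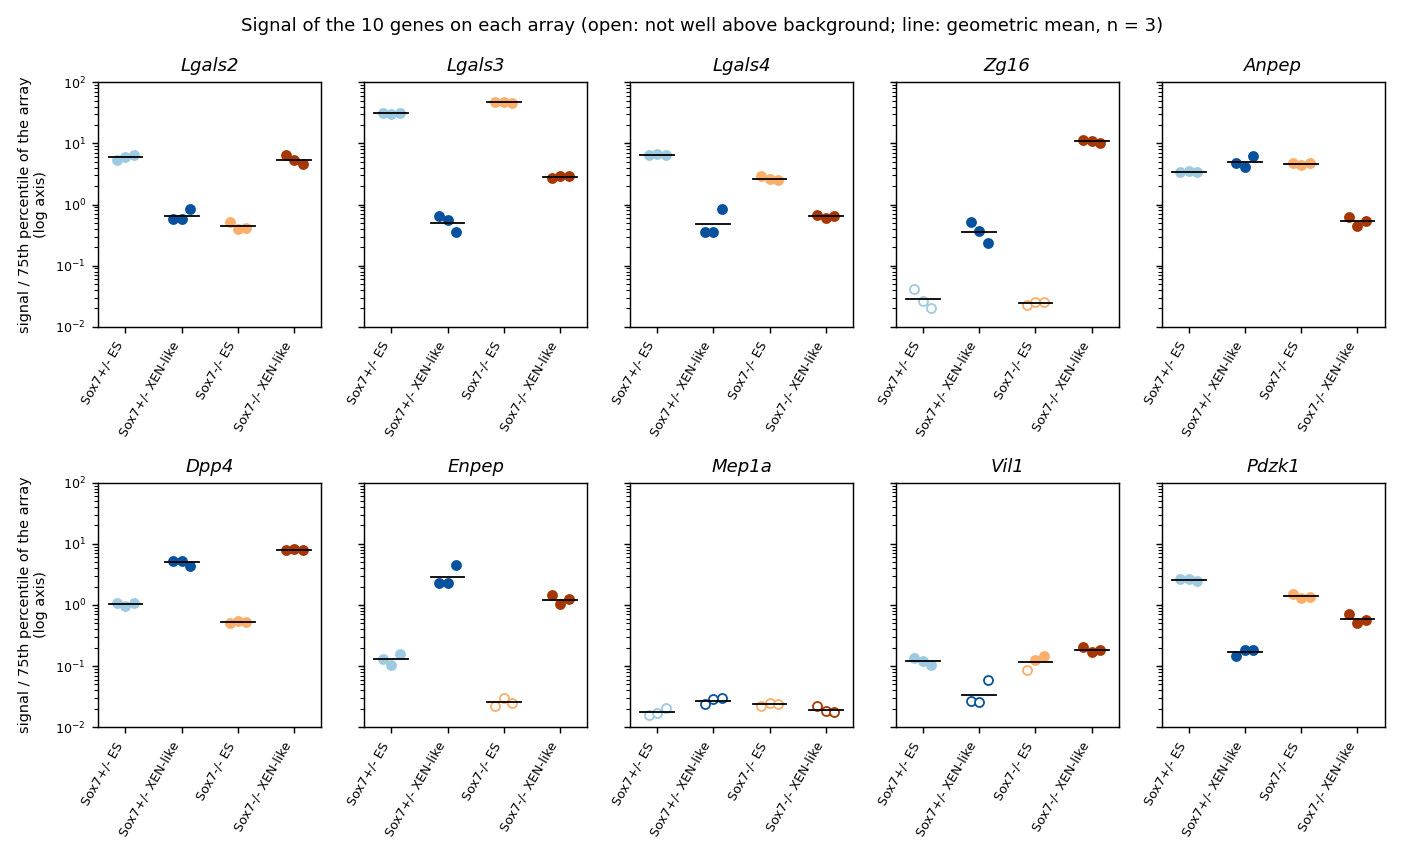
Relative signal (processed signal over the 75th percentile of the array, log axis) of the 10 genes on each of the 12 arrays, with open points for spots not well above background and a line at the geometric mean of 3 arrays. Lgals2 is high in Sox7+/- ES and Sox7-/- XEN-like cells and low in the other groups, Anpep is low in Sox7-/- XEN-like cells, and every point of Mep1a is open.

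Lgals2 encodes galectin-2, a dimeric galectin of the gut epithelium. Its relative signal was 5.32, 5.94 and 6.49 on the 3 arrays of Sox7+/- ES cells and 0.573, 0.576 and 0.831 in Sox7+/- XEN-like cells. It was 0.516, 0.401 and 0.409 in Sox7-/- ES cells and 6.46, 5.30 and 4.61 in Sox7-/- XEN-like cells. The groups fell into a high pair and a low pair that did not overlap, and the genotypes ran in opposite directions with Dex. The means were 5.92 ± 0.584, 0.660 ± 0.148, 0.442 ± 0.0646 and 5.46 ± 0.935 in this order (SD, n = 3 each). Within the high pair and within the low pair, neighbours differed by little: Sox7+/- ES and Sox7-/- XEN-like arrays overlapped in range, whereas all Sox7+/- XEN-like arrays lay above all Sox7-/- ES arrays. With Dex the signal was 9.08-fold lower in Sox7+/- cells (log2 -3.18 ± 0.18, standard error) and 12.3-fold higher in Sox7-/- cells (log2 3.62 ± 0.18). Between the genotypes, Sox7-/- cells were 8.32-fold higher among XEN-like cells and 13.4-fold lower among ES cells.

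The stretch of 250 bases upstream of the Lgals2 start is shown because it holds matches to the recognition letters of 3 factor families of the gut. It is on the minus strand at chr15:78855530-78855779 (RefSeq, GRCm38.p6) and reads 5′ to 3′ in gene orientation. Capitals mark, from left to right, a GATA match (AGATAA, first base at -90 from the start), a Cdx match (TTTATNG, at -68) and an Hnf1 match (GTTAAT, at -51).
Lgals2 upstream: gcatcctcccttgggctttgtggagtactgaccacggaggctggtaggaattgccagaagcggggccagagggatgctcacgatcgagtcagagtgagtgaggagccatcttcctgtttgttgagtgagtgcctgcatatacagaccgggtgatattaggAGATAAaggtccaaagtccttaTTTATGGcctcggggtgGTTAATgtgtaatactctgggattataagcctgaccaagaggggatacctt
Both strands were searched in windows of 250 bases before to 50 after the start, and the letters do not overlap each other. Of 32851 promoters, 11.2% held the GATA letters, 10.9% the Cdx letters and 7.1% the Hnf1 letters. Promoters were listed for 9 of the 10 genes. The GATA letters were in 2 of these 9, the Cdx letters in 3 and the Hnf1 letters in 1. The Hnf4 letters CAAAGTCCA were in 1 (0.475% of all promoters), the Sox letters AACAAT in 2 (10.7%) and the glucocorticoid receptor letters ACANNNTGT in 0 (6.85%). A match is a description of the letters and not a site.

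Lgals3 encodes galectin-3, a galectin with a single carbohydrate-binding domain and a long tail through which it forms oligomers. Its relative signal was 31.5, 30.5 and 31.4 in Sox7+/- ES cells, 0.640, 0.561 and 0.361 in Sox7+/- XEN-like cells, 47.9, 48.4 and 46.7 in Sox7-/- ES cells and 2.71, 2.88 and 2.89 in Sox7-/- XEN-like cells. None of the 4 groups overlapped. Lgals3 fell 61.5-fold with Dex in Sox7+/- cells (log2 -5.94 ± 0.17, adjusted p = 1.1e-09 by limma) and 16.9-fold in Sox7-/- cells (log2 -4.08 ± 0.17, adjusted p = 1.07e-08 by limma). The fall in Sox7+/- cells was -5.33 on the log2 scale with normexp background correction. As a description, Sox7-/- XEN-like cells were 5.58-fold higher than Sox7+/- XEN-like cells, and Sox7-/- ES cells 1.53-fold higher than Sox7+/- ES cells.

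Lgals4 encodes galectin-4, a galectin with a tandem pair of carbohydrate-binding domains that associates with lipid rafts of the enterocyte membrane. The brightest of its 3 probes read 6.44, 6.70 and 6.53 in Sox7+/- ES cells and 2.89, 2.63 and 2.50 in Sox7-/- ES cells. It read 0.351, 0.358 and 0.851 in Sox7+/- XEN-like cells and 0.685, 0.604 and 0.648 in Sox7-/- XEN-like cells. The ES groups lay above both XEN-like groups, and the XEN-like groups overlapped. On the dimmest probe they did not overlap, with Sox7-/- XEN-like cells higher (log2 0.59, not called). Lgals4 fell 13.8-fold with Dex in Sox7+/- cells (log2 -3.79 ± 0.28, adjusted p = 9.79e-07 by limma) and 4.14-fold in Sox7-/- cells (log2 -2.05 ± 0.28, adjusted p = 8.13e-05 by limma). The other probes gave log2 changes of -3.72 and -3.36 in Sox7+/- cells and of -1.92 and -1.43 in Sox7-/- cells. All 3 probes were called lower in both genotypes. The brightest probe (chr7:29626661-29626720, mm9) and the next (chr7:29626658-29626717) overlap almost wholly, so their readings are not separate. The difference between the XEN-like groups turned on 1 array: it was 0.44 on the log2 scale with all arrays and 0.86 without Sox7+/- XEN-like replicate 3, the array at 0.851.

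Lgals6 is a close mouse paralog of Lgals4, and reads of the pair may mix on the array. Each Lgals4 probe was aligned with the Lgals6 probe, and only the pair with the highest share of identical bases is shown. That pair holds the third and dimmest Lgals4 probe, not the brightest. The letters of both are shown to let the likeness be seen, in lower case with the bases that differ in capitals.
Lgals4 probe: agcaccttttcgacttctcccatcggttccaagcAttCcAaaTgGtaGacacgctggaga
Lgals6 probe: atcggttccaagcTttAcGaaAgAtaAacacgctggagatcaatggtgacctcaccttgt
Bases 22 to 60 of the Lgals4 probe align with bases 1 to 39 of the Lgals6 probe, and 33 of these 39 bases are identical (84.6%). The Lgals4 probe lies at chr7:29626555-29626614 (mm9, plus strand), and the arrays give no position for the Lgals6 probe. The Lgals6 probe read 3.46, 3.38 and 3.54 in Sox7+/- ES cells, 0.152, 0.0654 and 0.372 in Sox7+/- XEN-like cells, 1.37, 1.41 and 1.23 in Sox7-/- ES cells and 0.296, 0.239 and 0.297 in Sox7-/- XEN-like cells. It fell with Dex in Sox7+/- cells (log2 -4.48 ± 0.47) and in Sox7-/- cells (log2 -2.27 ± 0.47). Whether either transcript is bound by the probe of the other was not tested.

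**Figure D2:**
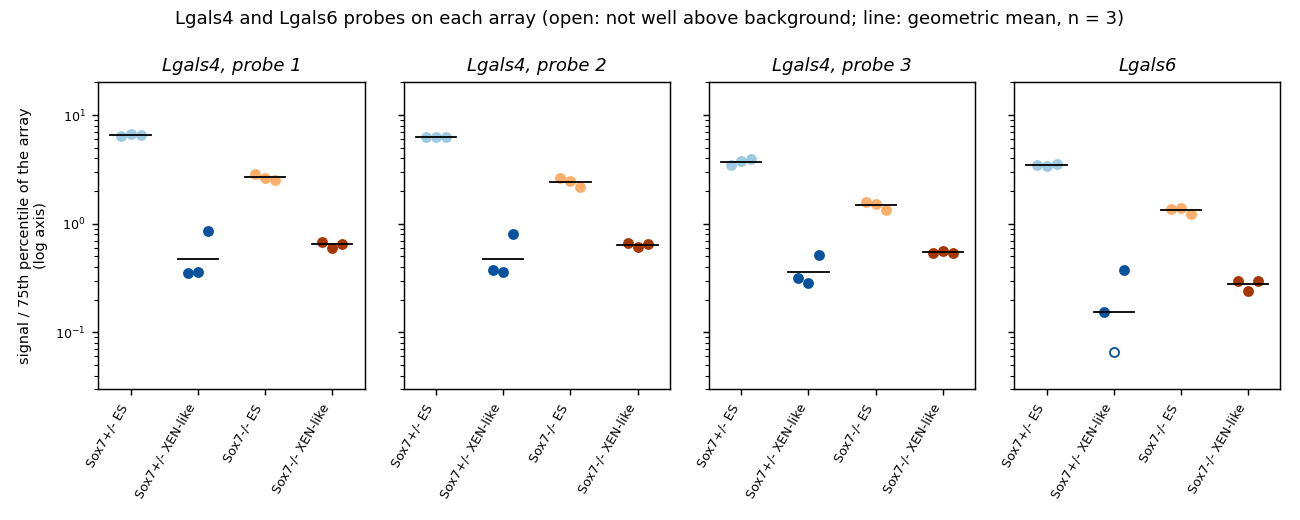
Relative signal (log axis) of the 3 Lgals4 probes and the Lgals6 probe on each of the 12 arrays, with a line at the geometric mean of 3 arrays and an open point where the spot was not well above background. The 4 probes rank the groups alike, from Sox7+/- ES cells down to the XEN-like groups, and Sox7+/- XEN-like replicate 3 is the highest of its group on each.

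Zg16 encodes zymogen granule protein 16, a secreted lectin of pancreatic acinar cells and goblet cells that binds the wall of gram-positive bacteria. Its probe is shown because its signal went from not well above background in ES cells to 11.5 in Sox7-/- XEN-like cells.
Zg16 probe: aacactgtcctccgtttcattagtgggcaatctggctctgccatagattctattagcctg
It lies at chr7:134193837-134193896 (mm9, minus strand). Zg16 was not well above background on any of the 6 ES arrays, where it read 0.0422, 0.0261 and 0.0201 in Sox7+/- cells and 0.0228, 0.0255 and 0.0251 in Sox7-/- cells. In XEN-like cells it was well above background on all 6 arrays, at 0.512, 0.374 and 0.238 in Sox7+/- cells and 11.5, 11.1 and 10.3 in Sox7-/- cells. No Sox7+/- XEN-like array came near the Sox7-/- XEN-like arrays. Against the lowest signal that counted as well above background, Sox7+/- cells gained at least 5.75-fold with Dex and Sox7-/- cells at least 121-fold. Such bounds hold for the background correction and scaling used here. With normexp background correction the log2 changes of Zg16 were 1.40 and 5.74, and those in the deposited table were 1.19 and 6.11, each short of these bounds. Between the XEN-like groups the signal was 30.8-fold higher in Sox7-/- cells (log2 4.94 ± 0.29).

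Anpep encodes aminopeptidase N, the zinc peptidase that removes neutral residues from the amino end of peptides. It read 3.43, 3.54 and 3.44 in Sox7+/- ES cells, 4.73, 4.13 and 6.32 in Sox7+/- XEN-like cells and 4.78, 4.47 and 4.82 in Sox7-/- ES cells. In Sox7-/- XEN-like cells it read 0.614, 0.452 and 0.532, below every array of the other 3 groups. The change with Dex was 1.43-fold upwards in Sox7+/- cells (log2 0.52 ± 0.15), which was not called, and 8.87-fold downwards in Sox7-/- cells (log2 -3.15 ± 0.15). Among XEN-like cells Sox7-/- cells were 9.41-fold lower. The Anpep probe lies at chr7:86966716-86966775 (mm9, minus strand), and none of the 6 motifs matched its promoter window.

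Dpp4 encodes dipeptidyl peptidase 4, the serine peptidase that inactivates incretin hormones and trims proline-containing peptides. It read 1.08, 0.970 and 1.07 in Sox7+/- ES cells and 5.23, 5.27 and 4.42 in Sox7+/- XEN-like cells. It read 0.501, 0.545 and 0.518 in Sox7-/- ES cells and 8.0, 8.16 and 7.96 in Sox7-/- XEN-like cells. The 4 groups did not overlap, and Sox7-/- cells held both the lowest and the highest group. Dpp4 rose 4.76-fold with Dex in Sox7+/- cells (log2 2.25 ± 0.08, adjusted p = 6.31e-09 by limma) and 15.4-fold in Sox7-/- cells (log2 3.95 ± 0.08, adjusted p = 1.08e-10 by limma). The rise in Sox7+/- cells was 1.61 on the log2 scale in the deposited table. As a description, Sox7-/- cells were 1.62-fold higher among XEN-like cells, and their ES cells differed by -0.998 on the log2 scale.

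The upstream stretch of Dpp4 is shown as that of a gene called higher in both genotypes and the only promoter window among the 9 with both GATA and Sox letters. It is on the minus strand at chr2:62412232-62412481 (RefSeq, GRCm38.p6). Capitals mark, from left to right, a Cdx match on the opposite strand (at -228), a Sox match (at -201), another Sox match (at -63) and a GATA match (at -32).
Dpp4 upstream: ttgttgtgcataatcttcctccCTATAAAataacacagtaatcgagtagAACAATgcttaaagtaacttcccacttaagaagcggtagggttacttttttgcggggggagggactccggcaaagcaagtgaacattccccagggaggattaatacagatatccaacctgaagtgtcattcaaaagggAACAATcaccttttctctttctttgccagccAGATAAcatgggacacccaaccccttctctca
The Cdx and GATA letters were thus shared with the Lgals2 window, whereas Dpp4 held no Hnf1 letters there and Lgals2 no Sox letters.

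Enpep encodes glutamyl aminopeptidase, which removes acidic residues and converts angiotensin peptides. It read 0.131, 0.103 and 0.160 in Sox7+/- ES cells and 2.30, 2.25 and 4.47 in Sox7+/- XEN-like cells. In Sox7-/- ES cells it was not well above background on any array (0.0225, 0.0302 and 0.0246), and in Sox7-/- XEN-like cells it read 1.46, 1.03 and 1.23. Both XEN-like groups lay above both ES groups. Enpep rose 22.0-fold with Dex in Sox7+/- cells (log2 4.46 ± 0.27, adjusted p = 2.41e-07 by limma) and at least 13.6-fold in Sox7-/- cells (adjusted p = 3.49e-08 by limma). The rises were smaller with normexp background correction (log2 3.08 and 2.61) and in the deposited table (2.92 in both genotypes), which puts Sox7-/- cells short of that bound. As a description, Sox7-/- XEN-like cells were 2.32-fold lower than Sox7+/- XEN-like cells (log2 -1.21). It was under 2-fold, and no longer called, without Sox7+/- XEN-like replicate 3 (-0.89), with spike-in scaling (-0.97) and in the deposited table (-0.70). Sox7-/- ES cells were at least 1.43-fold lower than Sox7+/- ES cells. This ES difference was under 2-fold, and no longer called, with normexp background correction (log2 -0.56) and in the deposited table (-0.70).

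Mep1a encodes the alpha subunit of meprin, a secreted or membrane-bound metallopeptidase. It was not well above background on any of the 12 arrays (0.0159 to 0.0297) and was not tested. Mep1b, which encodes the beta subunit, was well above background on all 12 arrays and fell with Dex by 3.47 on the log2 scale in Sox7+/- cells and by 4.98 in Sox7-/- cells. Meprin beta can act without the alpha subunit.

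**Figure D3:**
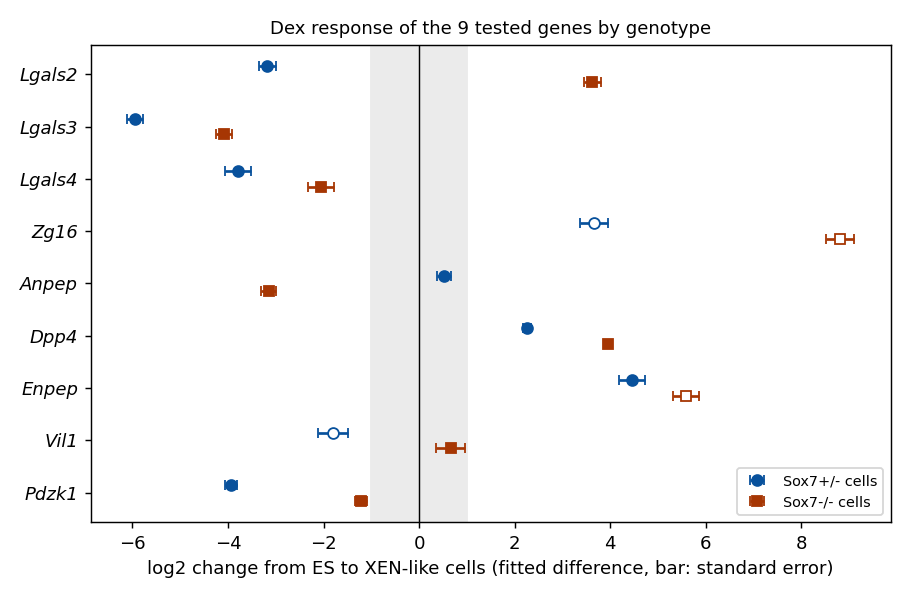
Fitted log2 change from ES to XEN-like cells for the 9 tested genes, with circles for Sox7+/- cells, squares for Sox7-/- cells and bars for the standard error; open symbols have an ES or XEN-like group not well above background, and the grey band marks changes under 2-fold. Lgals2 lies on opposite sides of 0 in the genotypes (-3.18 and 3.62), Anpep is inside the band in Sox7+/- cells and at -3.15 in Sox7-/- cells, and Dpp4 and Enpep lie to the right of the band in both.

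Vil1 encodes villin, which bundles and severs actin filaments in microvilli. It was dim in every group. It read 0.134, 0.119 and 0.106 in Sox7+/- ES cells, 0.0267, 0.0255 and 0.0583 in Sox7+/- XEN-like cells (none well above background), 0.0848, 0.128 and 0.148 in Sox7-/- ES cells (2 of 3 well above background) and 0.208, 0.167 and 0.182 in Sox7-/- XEN-like cells. Vil1 fell at least 1.27-fold with Dex in Sox7+/- cells (adjusted p = 0.000485 by limma). Its difference in Sox7-/- cells, log2 0.66 ± 0.31, was not called (adjusted p = 0.0809 by limma), although all XEN-like arrays read above all ES arrays. The call in Sox7+/- cells was lost with normexp background correction, where the log2 change was -0.22, and in the deposited table, where it was -0.72. As a description, Sox7-/- XEN-like cells were at least 1.97-fold higher than Sox7+/- XEN-like cells, and the log2 difference with normexp background correction was 0.50.

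Pdzk1 encodes a scaffold protein with PDZ domains that anchors transporters and the HDL receptor at apical membranes. Its brighter probe read 2.70, 2.67 and 2.46 in Sox7+/- ES cells, 0.148, 0.182 and 0.183 in Sox7+/- XEN-like cells, 1.52, 1.30 and 1.35 in Sox7-/- ES cells and 0.712, 0.512 and 0.576 in Sox7-/- XEN-like cells. The groups did not overlap, and the Sox7-/- groups lay between the Sox7+/- groups. Pdzk1 fell 15.3-fold with Dex in Sox7+/- cells (log2 -3.94 ± 0.13, adjusted p = 3.23e-09 by limma) and 2.33-fold in Sox7-/- cells (log2 -1.22 ± 0.13, adjusted p = 1.41e-05 by limma). The larger fall was -2.74 with normexp background correction and -3.35 in the deposited table. Between the XEN-like groups the log2 difference was 1.80, and 0.91 with normexp background correction. The smaller fall was near the 2-fold limit: it was -0.93 with normexp background correction and -0.96 within slide 1 or with the slide as a block, each short of a call. The dimmer probe fell at least 3.62-fold in Sox7+/- cells and was not called in Sox7-/- cells (log2 -0.76, adjusted p = 0.0574 by limma).

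The differences between the genotypes, from which the genes were chosen, were as follows. Among XEN-like cells 7 of the 9 tested genes were called, 5 higher and 2 lower in Sox7-/- cells, where 7.50% of all probes were called (3.86% higher and 3.65% lower). Among ES cells 3 of the 9 were called, Lgals2, Lgals4 and Enpep, all lower in Sox7-/- cells, where 8.62% of probes were called (1.95% higher and 6.67% lower). The Dex response itself differed between the genotypes for 8 of the 9, where 9.79% of probes were called (6.62% higher and 3.17% lower). The change was more positive in Sox7-/- cells for 7 and more negative for Anpep. The ES groups lay on different slides, as given below, so their differences may also hold that of the slides. Nothing is read from these counts.

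Of the 2 slides, slide 2 carried 8 arrays, and slide 1 carried Sox7-/- XEN-like replicate 1 together with all 3 arrays of Sox7-/- ES cells. Within slide 2, the Sox7-/- XEN-like arrays differed from the Sox7+/- XEN-like arrays by 2.93 for Lgals2, 4.91 for Zg16 and -3.34 for Anpep on the log2 scale. Within slide 1, the Dex response in Sox7-/- cells was 3.88 for Lgals2, 8.88 for Zg16 and -2.93 for Anpep, from 3 ES arrays and 1 XEN-like array. No slide held both ES groups, so that genotype and slide cannot be told apart among ES cells. With the slide as a block the difference between the ES groups was -4.13 for Lgals2 in place of -3.75 and -1.30 for Pdzk1 in place of -0.91. That block rests on Sox7-/- XEN-like cells, the only group on both slides, with 1 array on slide 1.

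Cell type markers moved with the groups. The relative signals of the 12 visceral endoderm markers summed to 135 to 136 in Sox7+/- ES cells, 55.7 to 63.4 in Sox7-/- ES cells, 252 to 311 in Sox7+/- XEN-like cells and 511 to 562 in Sox7-/- XEN-like cells. Cited1 alone had geometric means of 102 and 193 in the Sox7+/- and Sox7-/- XEN-like groups, and Lrp2 of 77.8 and 54.6. The 12 parietal endoderm markers summed to 1490 to 1530 and 1190 to 1270 in Sox7+/- and Sox7-/- ES cells. In the XEN-like groups they summed to 3510 to 3880 and 3080 to 3220, lower in Sox7-/- cells. Sparc, which was not called in either Dex response, was the brightest of these markers in every group. Its geometric means were 880 and 772 in Sox7+/- and Sox7-/- ES cells and 1220 and 1020 in the XEN-like groups. The 10 ES cell markers summed to 836 to 853 and 1150 to 1270 in Sox7+/- and Sox7-/- ES cells, and to 582 to 738 and 615 to 657 in the XEN-like groups. Dppa5a, which was not called in either Dex response, made up most of these sums, with geometric means of 521 and 591 in the ES groups and 582 and 554 in the XEN-like groups. Nanog, a core pluripotency factor, fell at least 581-fold in Sox7+/- cells and was not well above background on any XEN-like array. Of 8 macrophage markers on the array 4 were tested. Emr1, a surface receptor, rose in both genotypes (log2 2.54 and 2.88) and Cd68 in Sox7-/- cells (1.66), Itgam and Csf1r were well above background on all 12 arrays and were not called, and Ptprc, Lyz2 and Fcgr1 were not well above background on any array. The summed signal ran from 10.6 to 30. Of 7 endothelial markers 5 were tested. Tek rose in both genotypes (3.30 and 3.75), Esam fell in Sox7+/- cells (-2.53), Cdh5 and Pecam1 fell in Sox7-/- cells (-2.49 and -2.04), Kdr was not called, and Emcn was not well above background on any array. The summed signal ran from 12.5 to 19.6. The part of cell composition in these results was not tested. In bulk RNA, fewer cells of a type and less RNA per cell cannot be told apart.

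Other genes of the gut epithelium were read the same way, from lists chosen with results of these arrays known. Beside the counts of these lists, 24.9% of all probes were called in Sox7+/- cells (11.0% higher and 14.0% lower). In Sox7-/- cells 28.8% were called (14.6% higher and 14.2% lower). Nothing is read from the list counts. Of 18 other brush border hydrolases 7 could be tested. With Dex 1 rose and 4 fell in Sox7+/- cells and 1 rose and 3 fell in Sox7-/- cells, with medians of -1.40 and 0.12. The fall of Alpl, tissue-nonspecific alkaline phosphatase, was at least 64.0-fold in Sox7+/- cells. With normexp background correction its log2 change was -4.25, short of this bound. Ace, angiotensin-converting enzyme, passed the filter through XEN-like cells alone. It rose at least 4.72-fold in Sox7+/- cells, a call that was lost in the deposited table. Sucrase-isomaltase (Sis), lactase (Lct) and intestinal alkaline phosphatase (Alpi) were not well above background on all arrays of any group and were not tested.

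Of 8 other galectins 6 were tested. In Sox7+/- cells 1 rose and 3 fell, and in Sox7-/- cells 3 rose and 2 fell, with Lgals1 and Lgals6 lower and Lgals8 higher in both. The Lgals8 call in Sox7+/- cells (log2 1.16) was lost with normexp background correction (0.92), spike-in scaling (0.68) and the deposited table (0.59). Lgals1, galectin-1, fell by 1.26 on the log2 scale in Sox7+/- cells and by 1.08 in Sox7-/- cells, where the call was lost within slide 1 (-0.96). Of 16 other microvillus scaffold proteins 12 were tested, with 1 higher and 5 lower in Sox7+/- cells and 0 higher and 1 lower in Sox7-/- cells. The latter was Cobl, an actin nucleator, which fell in both genotypes (log2 -4.75 and -5.64). Pdzk1ip1, a partner of the Pdzk1 scaffold, fell at least 19.7-fold in Sox7+/- cells, and its log2 difference in Sox7-/- cells was -0.92 (not called). With normexp background correction its log2 change in Sox7+/- cells was -2.91, short of this bound.

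Absorptive transporters, 7 of 17 tested, had medians of -0.28 in Sox7+/- cells and 3.05 in Sox7-/- cells, with 1 higher and 2 lower in the former and 5 higher and 1 lower in the latter. Fabp1, Fabp2 and the transporter Slc9a3 passed the filter through Sox7-/- XEN-like cells alone, so nothing is drawn from these counts and medians. Slc7a9, a cystine transporter subunit, fell at least 2.50-fold in Sox7+/- cells and rose at least 10.4-fold in Sox7-/- cells. Fabp1 and Fabp2, fatty acid carriers of the enterocyte, rose at least 4.49-fold and at least 2.63-fold in Sox7-/- cells and were not called in Sox7+/- cells. With normexp background correction the calls of Slc7a9 in Sox7+/- cells (log2 -0.47) and of Fabp2 (0.97) were lost, and 0 and 3 of the 7 transporters were called in Sox7+/- and Sox7-/- cells. Under that correction Slc7a9 rose by 2.19 and Fabp1 by 1.45 on the log2 scale in Sox7-/- cells, each short of its bound. Of 14 intestinal transcription factors 11 were tested, with 2 higher and 4 lower in Sox7+/- cells and 4 higher and 2 lower in Sox7-/- cells. Cdx2, a caudal-type regulator of gut identity, fell at least 3.95-fold in Sox7+/- cells. With normexp background correction its log2 change was -1.07, short of this bound. Hnf4a, a nuclear receptor of endoderm, rose by 2.88 on the log2 scale in Sox7-/- cells, and its 0.87 in Sox7+/- cells was short of 2-fold. Isx, a homeobox factor of the gut, rose in both.

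**Figure D4:**
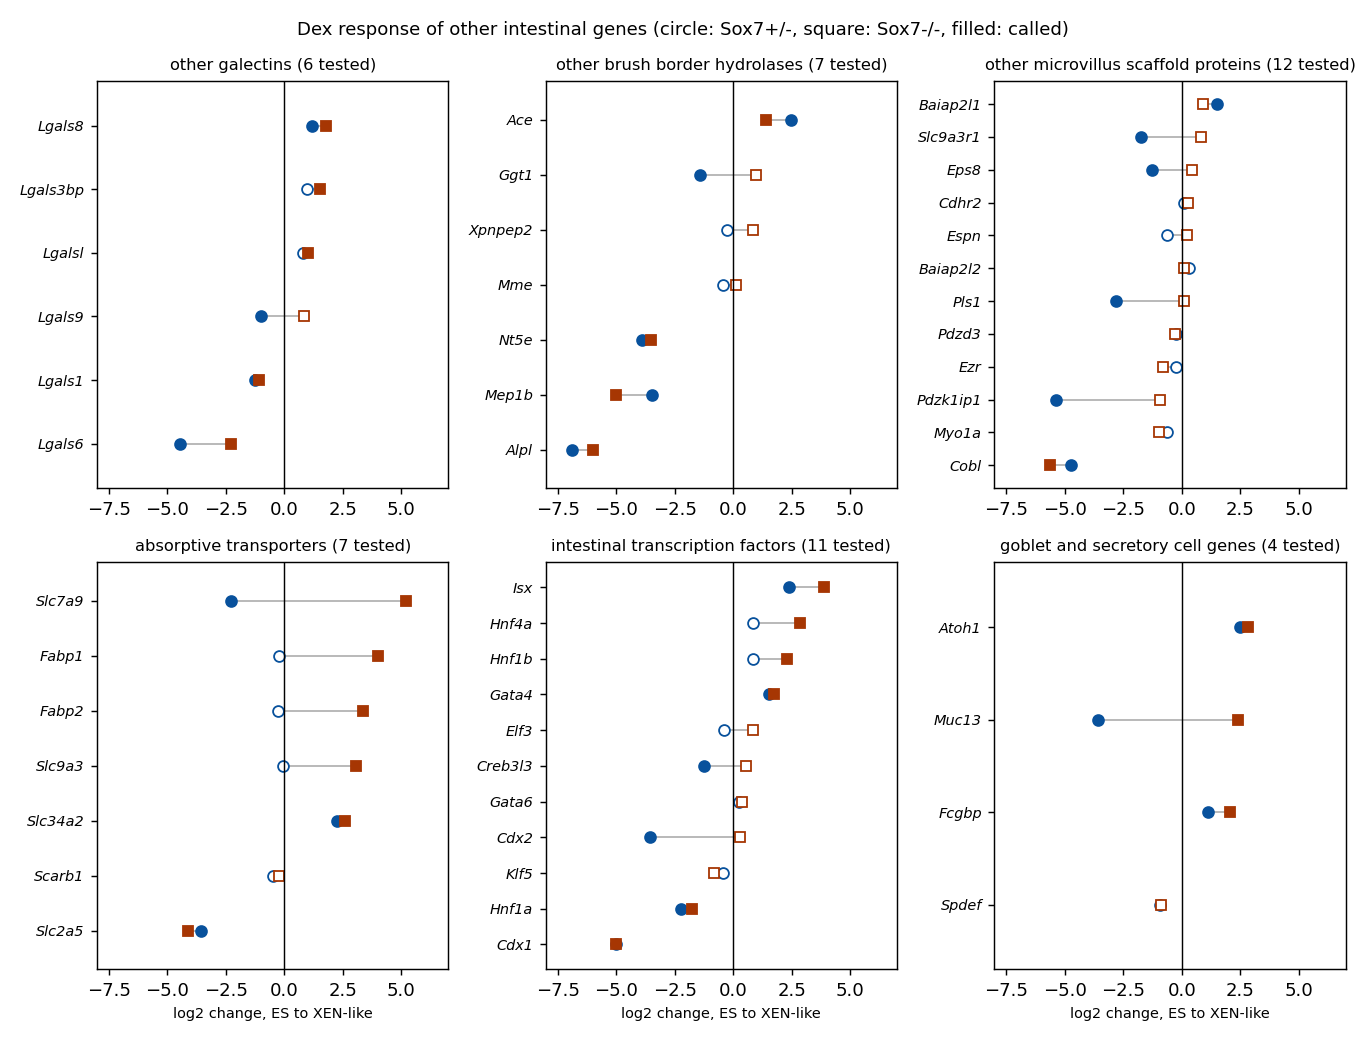
Dex response (log2 of XEN-like over ES cells) for tested genes of 6 further lists, with circles for Sox7+/- cells, squares for Sox7-/- cells and filled symbols for called changes. Slc7a9 and Muc13 have called changes on opposite sides of 0 in the genotypes, and Cobl, Alpl and Cdx1 lie far to the left in both.

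Of 12 goblet and secretory cell genes 4 were tested, with 2 higher and 1 lower in Sox7+/- cells and 3 higher in Sox7-/- cells. Muc13, a transmembrane mucin, fell at least 8.64-fold in Sox7+/- cells and rose at least 4.79-fold in Sox7-/- cells. With normexp background correction its log2 changes were -1.59 and 1.14, each short of these bounds. Fcgbp, a mucus protein, rose in both genotypes (log2 1.12 and 2.05), a call that was lost in Sox7+/- cells with normexp background correction, spike-in scaling or the deposited table. Atoh1, the regulator of the secretory lineage, was dim and rose at least 1.53-fold in Sox7+/- cells and at least 1.82-fold in Sox7-/- cells. It passed the filter through Sox7-/- XEN-like cells alone. Both calls were lost with normexp background correction (log2 0.79 and 0.93), and that in Sox7+/- cells also in the deposited table (0.52). Spdef was detected and not called in either genotype, and Muc2 and Tff3, which are abundant in goblet cells, were not well above background on any array.

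The genes most like 3 of the members were sought over the 12 arrays by the root mean square difference of log2 values, each probe centred on its own mean. For Lgals2 they were Muc13 (0.53), 4933402E13Rik (0.565) and Cxcl10 (0.573). For Anpep they were Pi16 (0.471), Runx1t1 (0.475) and Fyn (0.519), and for Zg16, less closely, Sfrp5 (1.07), Cfc1 (1.32) and Emx2 (1.57). A smaller value means a closer pattern. The measure also takes in signals not well above background, as those of Zg16 and Emx2 on all ES arrays, Muc13 in Sox7+/- XEN-like and Sox7-/- ES cells, Cxcl10 in Sox7-/- ES cells and Runx1t1 and Fyn in Sox7-/- XEN-like cells, so that the order of these genes depends on how dim signals were treated.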

How the data were processed

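RNA of the 12 samples had been hybridised to one-colour Agilent mouse arrays, and the intensity values were deposited as scanner output of Agilent Feature Extraction 10.7.3.1, where the processed signal had the background subtracted by the authors' software and no scaling between arrays. A deposited table of linear intensity values lay within 0.498% of the mean spot signal and was used as an alternative. It was taken with no background subtraction and no scaling between arrays. All its columns were matched to samples.

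Outlier spots were left out (139 to 190 per array), and spots of a probe were averaged on the log2 scale after division by the 75th percentile of the array (252.3 to 415.9). A probe was kept where some group read it well above background on each of its arrays, and the 25940 kept were fitted over all 12 arrays with a mean for each group (limma 3.58.1, R 4.3.3). Of these, 41 lacked a value on at least 1 array. Calls needed over 2-fold and p under 0.05 after Benjamini-Hochberg adjustment. No p was printed for Lgals2, Zg16, Anpep or any difference between the genotypes, since these had chosen the genes. Nor was a p printed for genes of the other lists, which were chosen with results known. The p-values printed for the remaining members do not allow for the choice of the set. The procedure was tested on simulated data.

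Arrays of a group correlated at 0.982 to 0.996. Deviations of arrays with the same number correlated at -0.051 to 0.126, so the numbers were not taken as pairs. A bound ("at least") set the brighter group against the lowest signal well above background on each dim array. It holds for the background correction and scaling used here. Genes were read by their brightest probe. All 10 members were named, and of the other lists only genes called in either Dex response, at most 4 in each direction. Exceptions were untested genes and Dppa5a, Itgam, Csf1r, Kdr, Sparc and Spdef, chosen after their values were seen. The scanner files gave the probe positions (mm9). Promoters came from RefSeq (GRCm38.p6). The members and lists were chosen with earlier results of these data known. Precision is limited by having 3 arrays a group.

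Alternatives changed the background (normexp, offset 50), the scaling (quantiles, 8 spike-in controls or the median of bright probes) or the filter (none, or all 12 arrays). Others took the deposited table, a single probe per gene name, a trend with intensity, the compared arrays alone, a block for slide or replicate number, or left each array out in turn. Fits within 1 slide were chosen after seeing the data.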

Additional observations from a re-analysis of the deposited data

Results flagged for a closer look

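The Dex response of 8 of the 9 tested genes differed between Sox7+/- and Sox7-/- cells by the limits of a call, beside 9.79% of all probes. Values here are the change in Sox7-/- cells minus the change in Sox7+/- cells on the log2 scale. The genes had been chosen with this contrast in view, so the values are a description and nothing is read from the count. The difference was 6.80 for Lgals2, 5.14 for Zg16, 2.72 for Pdzk1, 2.46 for Vil1, 1.87 for Lgals3, 1.74 for Lgals4 and 1.70 for Dpp4. It was -3.67 for Anpep. For Zg16 and Vil1 at least 1 group was not well above background on any array, so that the size depends on how dim signals were treated: with normexp background correction it was 4.34 for Zg16 and 0.45 for Vil1. The difference for Enpep was 1.12 and was not called, and it was -0.47 with normexp background correction.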

How the results depend on the processing

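Over the alternatives run, no called value of the 10 genes changed sign, and 118 of 121 recomputed counts of called members stayed within 1.5 times the reported count. With probes well above background on all 12 arrays, where Zg16, Enpep and Vil1 are not tested, 5 members were called in the Dex response of Sox7+/- cells in place of 8, and 4 between the XEN-like groups in place of 7. With spike-in scaling 5 were called between the ES groups in place of 3. Leaving out single arrays gave 8 called members in the Dex response of either genotype, 6 to 7 between XEN-like groups, 3 to 4 between ES groups and 8 to 9 for the difference in response. A replicate block in place of no pairing gave 8, 8, 7, 3 and 8 and changed no count. Of 1074 recomputed single values of these genes, 5 tested Dex responses lost a call, of Vil1 in Sox7+/- cells or Pdzk1 in Sox7-/- cells, and 74 values given with no test moved by more than the spread between arrays. Of 1246 for other named genes, 41 lost a call. The at-background Zg16 change in Sox7+/- cells was 1.19 in the deposited table in place of 3.67. Scaling moved all probes: with spike-in controls the median Dex response in Sox7+/- cells was -0.327 in place of 0.155, with 1263 probes higher and 5460 lower in place of 2851 and 3620, and between XEN-like groups 1618 higher and 499 lower in place of 1000 and 946. The deposited table gave 850 and 3486, and 1164 and 131. For the difference in response, probes higher and lower numbered 1718 and 822, 3022 and 352 after spike-in scaling, 1899 and 222 from the deposited values, and 1888 and 3537 without a filter. Causes were not tested. Low signal over background is the limit for Mep1a, Vil1, Zg16 and, in Sox7-/- ES cells, Enpep.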
